A study of Homo sapiens with 9 samples.

Results

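The genes described here encode the nuclear pore complex, the protein channel through the nuclear envelope. They were taken by name: every gene whose symbol is NUP followed by a number (22 genes, with 7 pseudogenes of such names left out), and NDC1, POM121, POM121C, TPR, RANBP2, SEH1L, RAE1, AAAS, GLE1 and AHCTF1. That gave 32 genes of the 61806 in the deposited table, and 30 of them had enough counts to be tested. The rule used no measured value. The cells were 786-O, an established human line from a clear cell renal carcinoma that lacks a functional VHL protein. Poly(A) RNA was sequenced from 9 libraries in 3 groups of 3: 786-O cells given a negative control RNA and labelled wild type, 786-O cells with knockdown of TRIM28, and 786-O cells with knockdown of PARP1. TRIM28 is a corepressor that silences chromatin with KRAB zinc finger proteins, and PARP1 is the main nuclear ADP-ribose polymerase. The labels call the reagent an siRNA in one field and an shRNA in another, elsewhere call the control cells parental, and give no dose or time. They do not say whether replicates came from separate cultures, and a p-value here speaks to the spread among these libraries only, which may be technical.

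As background, a pore is built from many copies of several kinds of protein called nucleoporins. A Y-shaped complex forms the outer rings on both faces of the envelope, an inner ring lines the pore wall, and a few membrane proteins hold the assembly in the envelope. Nucleoporins rich in phenylalanine-glycine repeats fill the channel and bind transport receptors, while cytoplasmic filaments release exported mRNA and a basket faces the nucleoplasm. Many of these proteins live long and are made in step with cell growth and division.

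The libraries held 11963110 to 20224374 counts. TRIM28 itself was at 346 ± 33.0 CPM (library-scaled counts, SD, n = 3) in control and 52.2 ± 7.33 in its knockdown, and PARP1 was at 177 ± 23.7 CPM in control and 5.52 ± 1.19 in its knockdown. PARP1 was also lower after TRIM28 knockdown, at 93.8 ± 0.556 CPM (log2 fold change -0.92, edgeR adjusted p = 3.61e-05). TRIM28 was at 430 ± 9.95 CPM after PARP1 knockdown (0.31, edgeR adjusted p = 0.0433). With the length and GC trends described below removed, these values were -0.68 and -0.35, and both passed. Of the renal epithelial markers, PAX8 (53.8 FPKM in control) and KRT18 (159 FPKM) were high while CA9 (0.837 FPKM) and EPCAM (0.277 FPKM) were low, and of 7 leukocyte and endothelial genes PTPRC, CD3E and CDH5 were listed at 0 in control, VWF was at 0.01, LYZ at 0.02, PECAM1 at 0.157 and CD68 at 0.723 FPKM. The libraries also differed in how counts were spread over genes of different length. The slope of log2 expression on log2 exon length, relative to the mean library, was 0.203, 0.175 and 0.0725 in the control libraries, -0.0105, -0.0244 and -0.00085 after TRIM28 knockdown, and -0.0968, -0.152 and -0.167 after PARP1 knockdown. Counts were thus shifted from long to short genes in both knockdowns, and control replicate 3 lay nearest to the knockdowns. The main counts over all nuclear pore genes are given below as measured and with this length trend removed. Values of single genes are as measured unless stated. Their size can change with the trend removed even where the call holds: the median after PARP1 knockdown moved from -1.07 to -0.73.

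In control cells the members spanned a wide range of levels per length, in FPKM (fragments per kilobase of exon, scaled to library totals, SD, n = 3). NUP37, a Y complex subunit, was at 39.2 ± 1.81 FPKM and stood above all others. NUP62 (25.6 ± 0.511), a channel protein, RAE1 (22.5 ± 1.296), an mRNA export factor, and NUP188 (21.9 ± 1.24), an inner ring scaffold, followed; RAE1 and NUP188 did not differ beyond their spread. The median member was at 5.02 FPKM. At the low end were 3 very large proteins: the basket protein TPR (0.567 ± 0.205), the Y complex anchor AHCTF1, also called ELYS (0.537 ± 0.155), and the cytoplasmic filament protein RANBP2 (0.243 ± 0.0907), whose levels overlapped in part. The membrane nucleoporin NUP210 had 0, 2 and 0 counts in the control libraries and its relative NUP210L had 0, 2 and 3, with at most 4 and 5 counts in any library. A count of 0 allows up to 3 counts, or 0.166 CPM in control replicate 1, so these 2 genes were near or below what this depth could detect, and they were not tested.

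**Figure D1:**
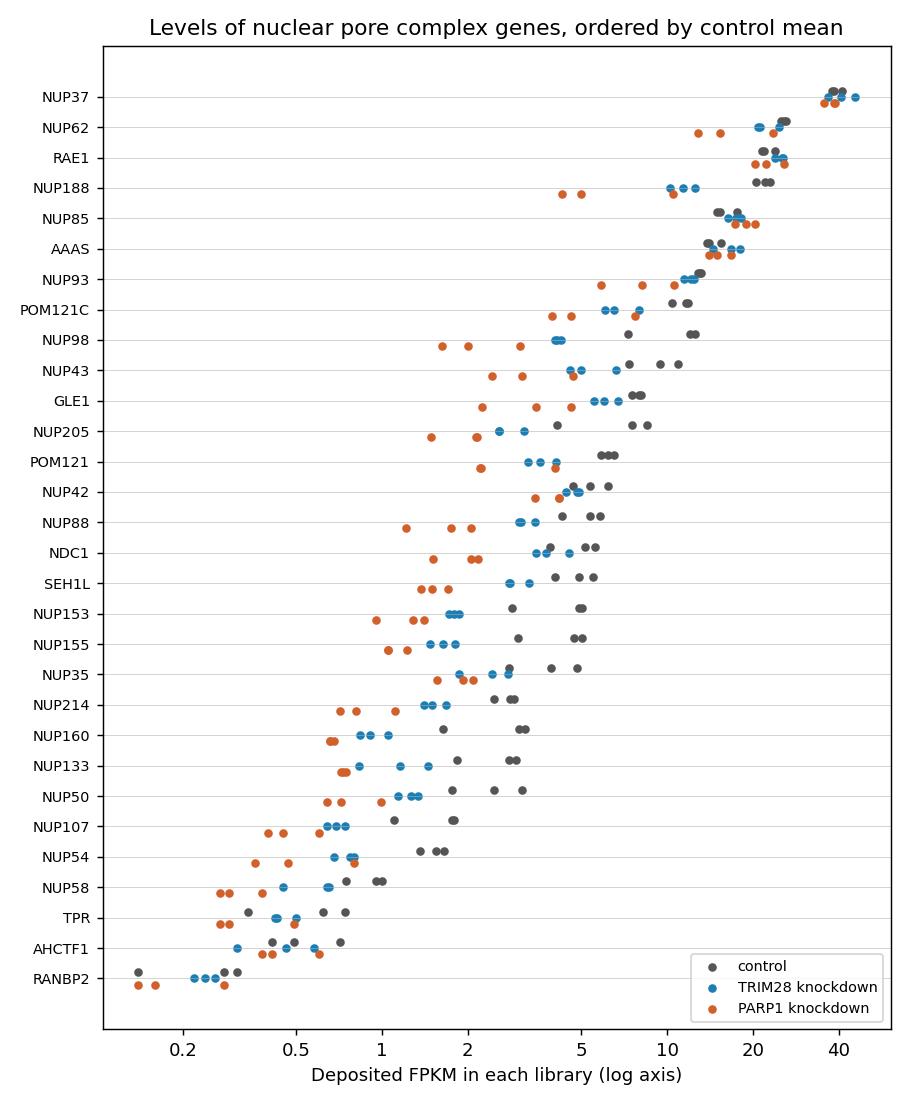
FPKM of each member in the 9 libraries on a log axis, with genes in order of their control mean. NUP37 sits highest with 39.2 FPKM in control, and RANBP2, at 0.243 FPKM, is the lowest of the tested members.

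After TRIM28 knockdown, 17 of the 30 tested members fell, none rose and 13 did not pass the test (edgeR quasi-likelihood test, Benjamini-Hochberg adjusted p under 0.05 over 13562 genes). At an unadjusted p under 0.05, edgeR gave 2 higher members, and DESeq2 called 2 after adjustment. Over all genes tested, 17.5% fell and 10.3% rose. The members' median log2 fold change was -0.54, against -0.02 over all genes. The falls came from the Y complex scaffold, the inner ring, the channel, the POM121 membrane proteins, the basket and the cytoplasmic proteins NUP214 and NUP88, and 5 members fell by 2-fold or more (5.60% of all genes did): NUP160, NUP155, NUP98, NUP205 and NUP153. In 18 members the 3 knockdown libraries all lay below the 3 control libraries (25.3% of all genes), and in 3 they all lay above (21.2%). Less RNA per cell and fewer cells of a kind cannot be told apart in bulk RNA.

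The count depended on single control libraries. It was 11 lower without control replicate 1 (8.80% of all genes), and 18 lower with 3 higher without control replicate 3 (19.9% and 15.5%). Control replicate 3 was the lowest control library for 23 of the 30 members, against 42.2% of all genes tested. With the length trend removed the split was 12 lower and 2 higher (AAAS and RAE1; 14.7% and 8.04% of all genes), and the median was -0.31. With trends on both length and GC content removed it was 11 lower and 2 higher (NUP37 and RAE1; 14.3% and 7.30%), and the median was -0.32. A fall of 2-fold or more passed for 1 member with the length trend removed (474 of 13562 genes). It passed for 0 members with both trends removed (321 of 13390 genes). The calls of SEH1L (-0.30 and -0.15) and NUP88 (-0.26 and -0.25) were lost under both treatments. Those of NUP214, POM121 and POM121C were lost with the length trend removed, and those of NUP43 (-0.40), NUP50 (-0.42), NUP54 (-0.43) and NUP35 (-0.39) with both trends removed.

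After PARP1 knockdown, 21 members fell, 3 rose and 6 did not pass the test, while 32.2% of all genes tested fell and 27.1% rose. The median member changed by -1.07 on the log2 scale, against -0.07 over all genes. Falls of 2-fold or more were seen for 16 members (18.8% of all genes), with the channel protein gene NUP98 lowest of all at -1.93. With the length trend removed 9 members fell that far (2030 of 13562 genes). With length and GC trends removed 3 did (1476 of 13390 genes). The 3 that rose were the Y complex subunit gene NUP85 and the genes of 2 proteins at the cytoplasmic side, AAAS and RAE1. In 21 members all PARP1 knockdown libraries lay below all control libraries (33.0% of all genes), and in 4 all lay above (30.5%). Scaled to library totals in place of TMM factors, 24 members fell and none rose, while 42.8% of all genes fell and 14.9% rose. limma on FPKM, which uses those totals, tested 27 members. It called 23 lower and none higher (1 at an unadjusted p under 0.05), against 42.7% and 19.8% of all genes. That scaling moved the median of all genes from -0.07 to -0.39 here and from -0.02 to -0.18 for TRIM28 knockdown. With the length trend removed 20 fell and 3 rose, with a median of -0.73 (29.2% and 23.8% of all genes), and with length and GC trends removed 19 fell and 6 rose, with a median of -0.61 (28.8% and 18.5%). Without control replicate 3, 20 fell and 3 rose (31.2% and 28.5%).

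**Figure D2:**
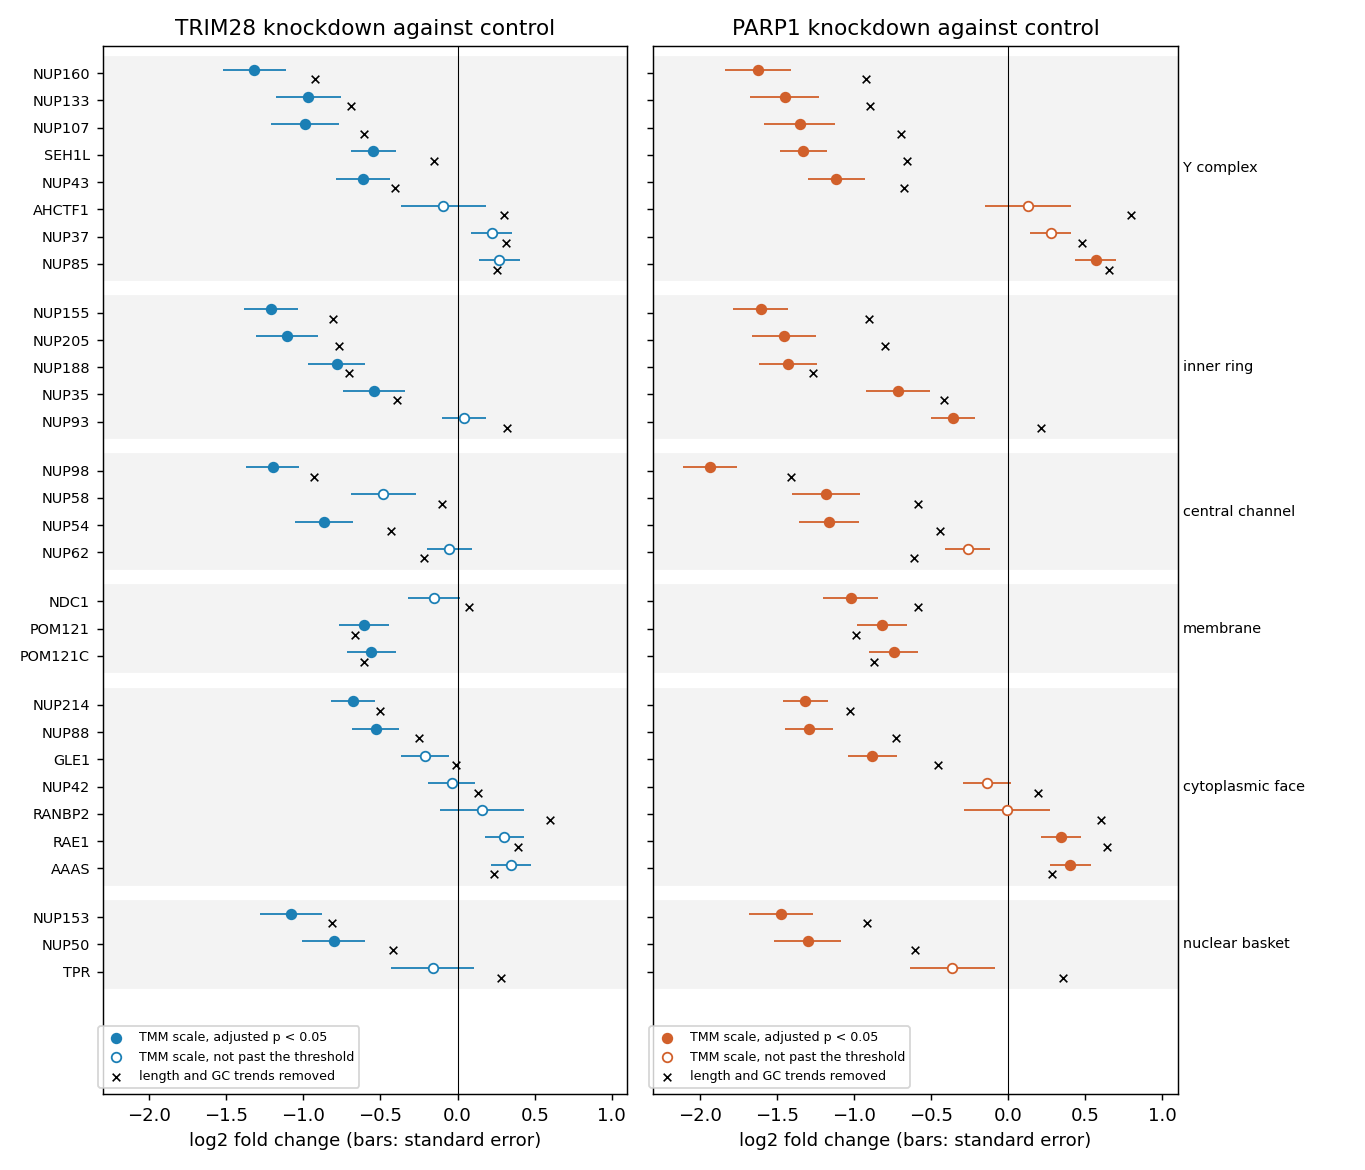
log2 fold change of the 30 tested members in each knockdown against control, by place in the pore, with standard errors; filled circles pass adjusted p under 0.05, and crosses are the values with length and GC trends removed. NUP98 is lowest after PARP1 knockdown, at -1.93, and most crosses lie to the right of their circles.

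Both comparisons use the same 3 control libraries, so their agreement is not independent. The fall passed the test in both knockdowns for 17 members (17.0% of all genes), in PARP1 knockdown alone for NUP58, GLE1, NDC1 and NUP93, and in TRIM28 knockdown alone for none (edgeR). Neither comparison passed for AHCTF1, NUP37, TPR, NUP62, NUP42 and RANBP2. For 8 members the fall passed in both knockdowns as measured, once the length trend was taken out, and once trends on length and GC content both were (9.94% of all genes): NUP160, NUP133, NUP107, NUP155, NUP205, NUP188, NUP98 and NUP153. All 8 kept both calls in every fit run but limma with no filter (7.02% of all genes did), where NUP188 and NUP205 lost the TRIM28 call; the other 6 kept both there too (5.21%). They are 3 subunits of the Y complex, 3 of the inner ring, the channel protein that also yields a Y complex subunit, and a basket protein. Summed over all 32 members, expression was 1603 ± 77.7 CPM in control, 1314 ± 3.89 after TRIM28 knockdown (82.0% of control) and 1122 ± 93.6 after PARP1 knockdown (69.97% of control; SD, n = 3).

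The Y complex builds the outer rings and also sits at kinetochores in mitosis. Of its 8 members, 5 fell in both knockdowns (17.0% of all genes did). Coordinates are of whole genes in GRCh38, exons and introns together, as the deposited table gives them. NUP160 (ENSG00000030066, chr11:47778087-47848555, minus strand), a scaffold subunit of the Y's arm, was at 23.6, 22.9 and 13.1 CPM in the control libraries, 8.90, 7.33 and 7.66 after TRIM28 knockdown and 5.90, 6.60 and 6.93 after PARP1 knockdown. All 6 knockdown libraries lay below all control libraries, and control replicate 3 was the lowest control. The log2 fold change was -1.32 ± 0.21 (SE; adjusted p = 4.88e-05) for TRIM28 and -1.62 ± 0.21 (SE; adjusted p = 6.01e-07) for PARP1 knockdown, and with length and GC trends removed -0.93 and -0.92. NUP133 (ENSG00000069248, chr1:229440259-229508341, minus strand), at the tip of the Y stalk, was at 15.6, 15.0 and 10.4 CPM in the control libraries, 8.72, 5.18 and 6.93 after TRIM28 knockdown and 4.70, 5.07 and 5.24 after PARP1 knockdown. Neither knockdown group overlapped control, and it changed by -0.97 ± 0.21 (SE; adjusted p = 0.00165) and -1.45 ± 0.22 (SE; adjusted p = 4.68e-06). NUP107 (ENSG00000111581, chr12:68686951-68745809, plus strand), its partner in the stalk, was at 12.6, 12.6 and 8.30 CPM in the control libraries, 5.91, 5.34 and 5.55 after TRIM28 knockdown and 3.78, 3.72 and 5.74 after PARP1 knockdown. It too was lower in every knockdown library, with log2 fold changes of -0.99 (adjusted p = 0.00196) and -1.35 (adjusted p = 1.87e-05).

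SEH1L (ENSG00000085415, chr18:12947133-12987536, plus strand), a small propeller subunit shared with the SEA complex that controls mTORC1, was at 50.2, 45.6 and 39.7 CPM in the control libraries, 33.9, 30.1 and 28.7 after TRIM28 knockdown and 16.3, 20.7 and 17.0 after PARP1 knockdown. Its 3 groups were fully separated, with PARP1 knockdown lowest. The changes were -0.55 ± 0.15 (SE; adjusted p = 0.00755) and -1.33 ± 0.15 (SE; adjusted p = 8.78e-08). The TRIM28 call for SEH1L was lost when control 1 or TRIM28 knockdown 2 or 3 was left out (-0.50 to -0.44). NUP43, another propeller subunit, changed by -0.61 (adjusted p = 0.0123) and -1.11 (adjusted p = 1.14e-05). Its TRIM28 call was lost in 4 of the 6 fits without 1 library of that comparison, those leaving out control 1 or 2 or TRIM28 knockdown 2 or 3 (-0.58 to -0.48).

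The other 3 Y complex members did not fall. NUP85 (ENSG00000125450, chr17:75205659-75235758, plus strand), which sits in the short arm with SEH1L, was at 69.0, 68.6 and 85.4 CPM in the control libraries, 92.8, 87.1 and 89.1 after TRIM28 knockdown and 101, 104 and 125 after PARP1 knockdown. Every PARP1 knockdown library lay above every control library, and every TRIM28 knockdown library did so by less. It rose by 0.57 ± 0.13 (SE; adjusted p = 0.000755) after PARP1 knockdown, and the TRIM28 change of 0.27 did not pass (adjusted p = 0.131), although it did without control replicate 3 (0.41) and with the compared groups fitted alone (0.27). On library totals NUP85 was at 0.24 for PARP1 knockdown and passed no more. NUP37 (ENSG00000075188, chr12:102073103-102120120, minus strand), the propeller bound to NUP160, was at 125, 116 and 126 CPM in the control libraries, 157, 145 and 126 after TRIM28 knockdown and 129, 156 and 159 after PARP1 knockdown. All 6 knockdown libraries lay above the controls, TRIM28 knockdown replicate 3 and PARP1 knockdown replicate 1 by little, and neither change passed (0.22 and 0.28). With length and GC trends removed both did, at 0.31 and 0.48, and the PARP1 rise also passed in DESeq2 (0.33), in edgeR with its size factors and without PARP1 knockdown replicate 1, while on library totals the PARP1 value was -0.06. AHCTF1 gave -0.09 and 0.13, neither passing, at no more than 6.83 CPM in any library; with length and GC trends removed its PARP1 value was 0.80 and passed. NUP37 and NUP85 had the highest CPM of the Y complex genes, and the summed CPM was 95.2% of control after TRIM28 and 95.9% after PARP1 knockdown, although 5 of its 8 genes fell.

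**Figure D3:**
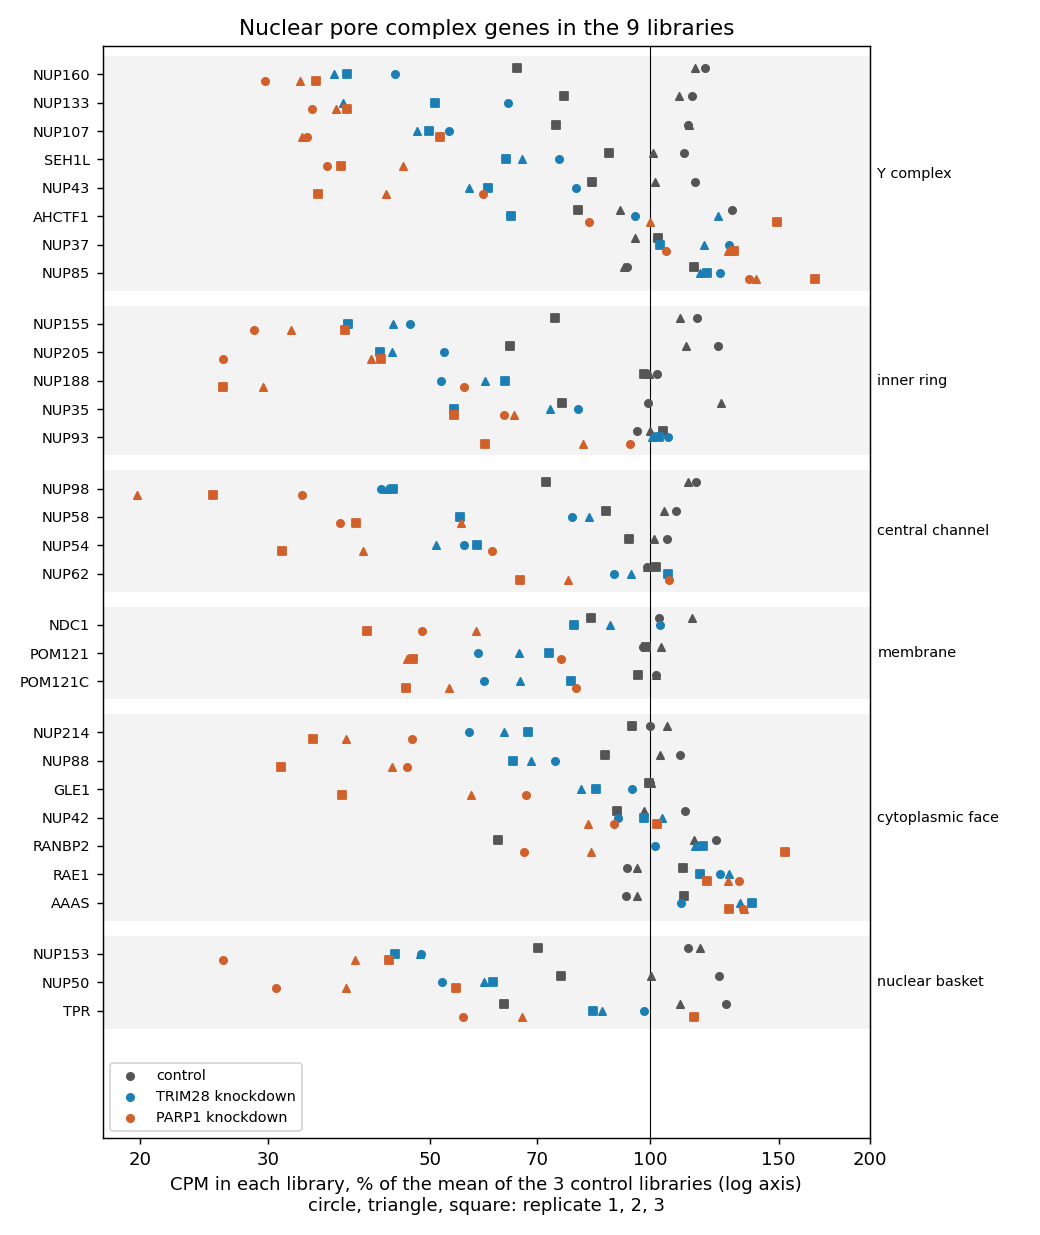
CPM of each tested member in each library as a percentage of its mean over the 3 control libraries, on a log axis, with replicates 1, 2 and 3 as circles, triangles and squares. The control squares (replicate 3) lie left of the other 2 controls for 23 of the 30 members, and NUP85, RAE1 and AAAS lie to the right of 100% in both knockdowns.

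The inner ring holds the wall of the pore together. Of its 5 members, 4 fell after TRIM28 knockdown (17.5% of all genes did) and all 5 after PARP1 knockdown (32.2%), and their summed CPM was 71.1% and 51.5% of control. NUP155 (ENSG00000113569, chr5:37288137-37371106, minus strand), which links the ring to the membrane, was at 40.2, 38.1 and 25.7 CPM in the control libraries, 16.2, 15.4 and 13.4 after TRIM28 knockdown and 9.94, 11.2 and 13.3 after PARP1 knockdown. The groups were separate, and every TRIM28 knockdown library lay above every PARP1 knockdown library. Its changes were -1.21 ± 0.17 (SE; adjusted p = 1.87e-05) and -1.60 ± 0.18 (SE; adjusted p = 6.51e-08). NUP205 (ENSG00000155561, chr7:135557917-135648757, plus strand), a large scaffold, was at 56.1, 50.7 and 29.1 CPM in the control libraries, 23.7, 20.1 and 19.3 after TRIM28 knockdown and 11.8, 18.8 and 19.4 after PARP1 knockdown. Its knockdown libraries all lay below control, with log2 fold changes of -1.11 (adjusted p = 0.000261) and -1.45 (adjusted p = 1.62e-06). NUP188 (ENSG00000095319, chr9:128947699-129007096, plus strand), the paralog of NUP205 that takes its place in part of the ring, was at 161, 157 and 154 CPM in the control libraries, 81.1, 93.3 and 99.4 after TRIM28 knockdown and 87.2, 46.3 and 40.9 after PARP1 knockdown. Here the 3 controls were nearly equal, and PARP1 knockdown replicate 1 stood well above the other 2 of its group. The changes were -0.78 ± 0.18 (SE; adjusted p = 0.0029) and -1.43 ± 0.19 (SE; adjusted p = 6e-07).

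NUP35, a membrane-binding ring protein, changed less, with log2 fold changes of -0.54 (adjusted p = 0.0472) and -0.72 (adjusted p = 0.00439). In NUP35 the control and TRIM28 knockdown libraries overlapped, and its TRIM28 call was lost in all fits without 1 library but that without control replicate 3 (-0.66 to -0.33). Its PARP1 call was lost without control replicate 2 (-0.49) and with length and GC trends removed (-0.42). NUP93 (ENSG00000102900, chr16:56730118-56850286, plus strand), the adaptor that ties the ring to the channel, was at 124, 129 and 135 CPM in the control libraries, 137, 130.2 and 133 after TRIM28 knockdown and 121, 105 and 77.1 after PARP1 knockdown. The PARP1 knockdown libraries lay below the controls, replicate 1 by little, and the TRIM28 knockdown libraries lay among or above them. The TRIM28 change was 0.04 (adjusted p = 0.852), and the PARP1 change was -0.36 ± 0.14 (SE; adjusted p = 0.0347). That call was lost without any 1 of the controls or PARP1 knockdown 2 or 3 (-0.38 to -0.19), and taking out the trends gave 0.07 (length) and 0.22 (length and GC).

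In the central channel, NUP98 (ENSG00000110713, chr11:3671083-3797792, minus strand) is made as a precursor that is cut into NUP98, a repeat protein that binds export factors, and NUP96, a Y complex subunit. It was at 142, 138 and 88.3 CPM in the control libraries, 52.5, 53.5 and 54.5 after TRIM28 knockdown and 40.9, 24.3 and 30.9 after PARP1 knockdown. All 3 groups were separate, and PARP1 knockdown was lowest. NUP98 changed by -1.20 ± 0.17 (SE; adjusted p = 1.67e-05) and -1.93 ± 0.18 (SE; adjusted p = 3.06e-09), or to 26.1% of control in the latter. NUP54 and NUP58, partners in the channel ring, gave -0.87 (adjusted p = 0.00165) and -0.48 (adjusted p = 0.0852) after TRIM28 knockdown, of which NUP54 passed; NUP58 did so in 3 alternatives (-0.64 to -0.48). After PARP1 knockdown they changed by -1.16 and -1.18; with length and GC trends removed NUP54 gave -0.44 and passed no more. NUP62 (ENSG00000213024, chr19:49906825-49929764, minus strand), the other protein of that ring, was at 137, 137 and 141 CPM in the control libraries, 123, 130.1 and 146 after TRIM28 knockdown and 147, 107 and 91.6 after PARP1 knockdown. Its groups overlapped, and its changes of -0.05 and -0.26 did not pass (adjusted p = 0.823 and 0.126). The PARP1 value passed as a fall in 6 alternatives, at -0.62 to -0.48: with length and GC trends removed (-0.61), on library totals (-0.57, adjusted p = 0.00891), in the 3 limma fits, and without PARP1 knockdown replicate 1 (-0.48, adjusted p = 0.00108).

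Among the membrane proteins, NDC1 (ENSG00000058804, chr1:53765478-53838463, minus strand), which anchors the inner ring, was at 21.1, 23.4 and 17.1 CPM in the control libraries, 21.2, 18.1 and 16.2 after TRIM28 knockdown and 10.002, 11.8 and 8.41 after PARP1 knockdown. TRIM28 knockdown libraries lay among or below the controls (-0.15, adjusted p = 0.536), and all PARP1 knockdown libraries lay below them, for a log2 fold change of -1.02 ± 0.18 (SE; adjusted p = 2.8e-05). POM121 (ENSG00000196313, chr7:72879349-72951440, plus strand) and POM121C (ENSG00000272391, chr7:75416786-75486299, minus strand) are near-identical copies that can share reads, so their values are not independent and the split between them is uncertain. POM121 was at 53.4, 56.6 and 53.9 CPM in the control libraries, 31.8, 36.1 and 39.7 after TRIM28 knockdown and 41.3, 25.4 and 25.8 after PARP1 knockdown. POM121C was at 90.5, 90.3 and 85.3 CPM in the control libraries, 52.5, 58.9 and 69.1 after TRIM28 knockdown and 70.3, 47.0 and 41.1 after PARP1 knockdown. In both, every knockdown library was below every control library. POM121 changed by -0.61 (adjusted p = 0.00712) and -0.82 (adjusted p = 0.000119), and POM121C by -0.56 (adjusted p = 0.0111) and -0.74 (adjusted p = 0.00029). The TRIM28 call was lost for POM121 without TRIM28 knockdown replicate 1 (-0.52) and for POM121C without any 1 of controls 1 and 2 and TRIM28 knockdowns 1 and 2 (-0.53 to -0.47), and for both with the length trend removed (-0.38 and -0.35).

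On the cytoplasmic face the members went both ways. NUP214 (ENSG00000126883, chr9:131125573-131234663, plus strand), which docks the helicase that strips exported mRNA, was at 60.2, 63.5 and 57.0 CPM in the control libraries, 34.1, 37.9 and 41.0 after TRIM28 knockdown and 28.4, 23.1 and 20.8 after PARP1 knockdown. Its 3 groups were separate, with changes of -0.68 ± 0.14 (SE; adjusted p = 0.00109) and -1.32 ± 0.15 (SE; adjusted p = 5.38e-08); with the length trend removed the TRIM28 value was -0.33 and did not pass. NUP88 (ENSG00000108559, chr17:5359668-5420164, minus strand), which holds NUP214 at the pore, was at 60.3, 56.6 and 47.6 CPM in the control libraries, 40.7, 37.6 and 35.6 after TRIM28 knockdown and 25.5, 24.3 and 17.1 after PARP1 knockdown. It was lower in every knockdown library, with log2 fold changes of -0.53 (adjusted p = 0.0108) and -1.29 (adjusted p = 1.91e-07). The TRIM28 call for NUP88 was lost on leaving out any 1 of controls 1 and 2 and TRIM28 knockdowns 2 and 3 (-0.50 to -0.44). GLE1 (ENSG00000119392, chr9:128504655-128543874, plus strand), the activator of that helicase, was at 75.8, 75.9 and 75.5 CPM in the control libraries, 71.5, 60.9 and 63.8 after TRIM28 knockdown and 51.1, 43.0 and 28.7 after PARP1 knockdown. The controls were almost equal, and GLE1 changed by -0.21 (adjusted p = 0.321) and -0.88 ± 0.16 (SE; adjusted p = 3.36e-05).

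AAAS (ENSG00000094914, chr12:53307456-53324864, minus strand), a propeller protein held at the pore by NDC1, was at 56.5, 58.6 and 68.1 CPM in the control libraries, 67.4, 81.2 and 84.3 after TRIM28 knockdown and 81.9, 82.2 and 78.3 after PARP1 knockdown. Every PARP1 knockdown library and 2 of the 3 TRIM28 knockdown libraries lay above every control library. AAAS rose by 0.40 ± 0.13 (SE; adjusted p = 0.0103) after PARP1 knockdown, and its TRIM28 value was 0.35 ± 0.13 (SE; adjusted p = 0.0503). RAE1 (ENSG00000101146, chr20:57351223-57379211, plus strand), the partner of NUP98 in mRNA export, was at 106, 109 and 126 CPM in the control libraries, 142, 146 and 133 after TRIM28 knockdown and 151, 145 and 136 after PARP1 knockdown. All knockdown libraries were above all controls, with values of 0.30 ± 0.13 (SE; adjusted p = 0.0748) and 0.34 ± 0.13 (SE; adjusted p = 0.0229). The PARP1 call for RAE1 was lost when control 1, control 2 or PARP1 knockdown 2 was left out (0.33 to 0.35), and both RAE1 and AAAS passed no more on library totals. The TRIM28 rise passed for AAAS in 7 alternatives (0.34 to 0.46) and for RAE1 in 5 (0.30 to 0.41), DESeq2 and the fit without control replicate 3 among them in both cases. NUP42, a cofactor of GLE1, gave -0.04 and -0.14, and RANBP2 gave 0.16 and -0.01, none passing. NUP42 did pass as a fall after PARP1 knockdown on library totals (-0.47, adjusted p = 0.0187) and in the 3 limma fits (-0.45 to -0.38). RANBP2 was at 3.59 to 8.90 CPM, with the lowest value in control replicate 3 and the highest in PARP1 knockdown replicate 3; with length and GC trends removed its PARP1 value was 0.60 and passed. Summed CPM of the 7 genes was 98.3% and 85.9% of control.

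In the basket, NUP153 (ENSG00000124789, chr6:17615035-17706925, minus strand), which binds importins and the lamina, was at 26.2, 27.2 and 16.3 CPM in the control libraries, 11.3, 11.2 and 10.4 after TRIM28 knockdown and 6.03, 9.13 and 10.2 after PARP1 knockdown. It was lower in all 6 knockdown libraries, with log2 fold changes of -1.08 ± 0.20 (SE; adjusted p = 0.000351) and -1.47 ± 0.21 (SE; adjusted p = 1.71e-06). NUP50 (ENSG00000093000, chr22:45163925-45188017, plus strand), a mobile cofactor of importin alpha, was at 22.2, 17.96 and 13.5 CPM in the control libraries, 9.28, 10.6 and 10.9 after TRIM28 knockdown and 5.50, 6.85 and 9.70 after PARP1 knockdown. Neither knockdown group overlapped control, and it changed by -0.80 (adjusted p = 0.00557) and -1.30 (adjusted p = 1.21e-05), the former lost without control replicate 1 (-0.60). TPR (ENSG00000047410, chr1:186311652-186375693, minus strand), the coiled-coil protein that forms the basket's struts, was at 7.89, 6.83 and 3.92 CPM in the control libraries, 6.10, 5.34 and 5.18 after TRIM28 knockdown and 3.44, 4.14 and 7.12 after PARP1 knockdown. Control replicate 3 was below every TRIM28 knockdown library, and TPR did not pass (-0.16 and -0.36). The PARP1 fall did pass without PARP1 knockdown replicate 3 (-0.71, adjusted p = 0.0334) and on library totals (-0.71, adjusted p = 0.0469). Summed CPM of the basket was 47.3 ± 11.995 in control (SD, n = 3). It was 56.6% of control after TRIM28 and 43.8% after PARP1 knockdown, the lowest percentages of the 6 places in the pore. That ranking holds for sums, which abundant genes dominate. The basket's median log2 fold changes were -0.80 (TRIM28) and -1.30 (PARP1), against -0.78 and -1.43 for the inner ring. With length and GC trends removed they were -0.42 and -0.61, against -0.71 and -0.80 for the inner ring.

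The direct comparison sets only the knockdown libraries against each other. The scaling, the filter and the estimate of spread in its fit also used the controls. Of the 30 members, 10 were higher after TRIM28 than after PARP1 knockdown, none was lower and 20 did not pass (edgeR; 13.2% of all genes were higher and 11.9% lower). At an unadjusted p under 0.05, 1 was lower by edgeR, and DESeq2 and limma called none lower. Of the 30 differences 25 were positive, while 6437 of all 13562 genes were negative. The median difference was 0.35, against 0.03 over all genes. The largest were NDC1 at 0.87 ± 0.18 (SE; adjusted p = 0.00192), SEH1L at 0.78 ± 0.15 (SE; adjusted p = 0.00118) and NUP88 at 0.76 ± 0.16 (SE; adjusted p = 0.00169). NUP98, GLE1 and NUP214 were at 0.74, 0.67 and 0.64 (adjusted p = 0.0041, 0.00392 and 0.00329). The differences passed for members of the Y complex, inner ring, channel, membrane and cytoplasmic face, and for none of the 3 basket genes. NUP58 (0.70), NUP188 (0.64), NUP43 (0.50) and NUP93 (0.40) passed with adjusted p of 0.0257, 0.0133, 0.0479 and 0.0423.

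Those last 4 each lost the call without 1 library: NUP58 without any 1 of TRIM28 knockdowns 1 and 2 and PARP1 knockdowns 1 and 3 (0.59 to 0.64), NUP188 without TRIM28 knockdown 3 or PARP1 knockdown 2 or 3 (0.45 to 0.55), NUP43 without any 1 of TRIM28 knockdowns 1 and 3 and PARP1 knockdowns 2 and 3 (0.34 to 0.54), and NUP93 in every such fit but that without PARP1 knockdown replicate 1 (0.24 to 0.43). Fitted without the control libraries, NUP43 (0.49, edgeR adjusted p = 0.0761) and NUP93 (0.39, edgeR adjusted p = 0.0746) passed no more. In 10 members every TRIM28 knockdown library lay above every PARP1 knockdown library (20.7% of all genes). With the length trend removed, 7 were higher and none lower (11.3% and 10.4% of all genes), and the median difference was 0.21. With length and GC trends removed the median difference was 0.11, against 0.03 over all genes. Then 22 of 30 were positive, while 6196 of all 13390 genes were negative. In that fit 8 members were higher and 1 lower (9.47% and 5.92% of all genes). NUP43, NUP58 and NUP93 were lost, NUP62 was gained among the higher, and NUP85 was the lower one.

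Most members are long genes, and length moved with the result. Their median exon length was 8406 bases, against 5054.5 over all genes tested, and 19 of 30 were in the 3 longest of 10 length classes. Over those classes the median log2 fold change of all genes ran from 0.33 to -0.39 for TRIM28 and from 0.65 to -0.67 for PARP1 knockdown, from shortest to longest. Set against the median of their own class, 20 members lay below it for TRIM28 and 21 for PARP1 knockdown. Among the members themselves, the Spearman correlation of log2 fold change with exon length was -0.23 and -0.28 (n = 30 genes, which share libraries), against -0.41 and -0.43 over all genes. The correlation with GC content was -0.01 in both, against 0.42 and 0.51 over all genes. NUP43, with 4420 bases, fell in both knockdowns, while RANBP2, the longest member at 26842 bases, gave 0.16 and -0.01.

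**Figure D4:**
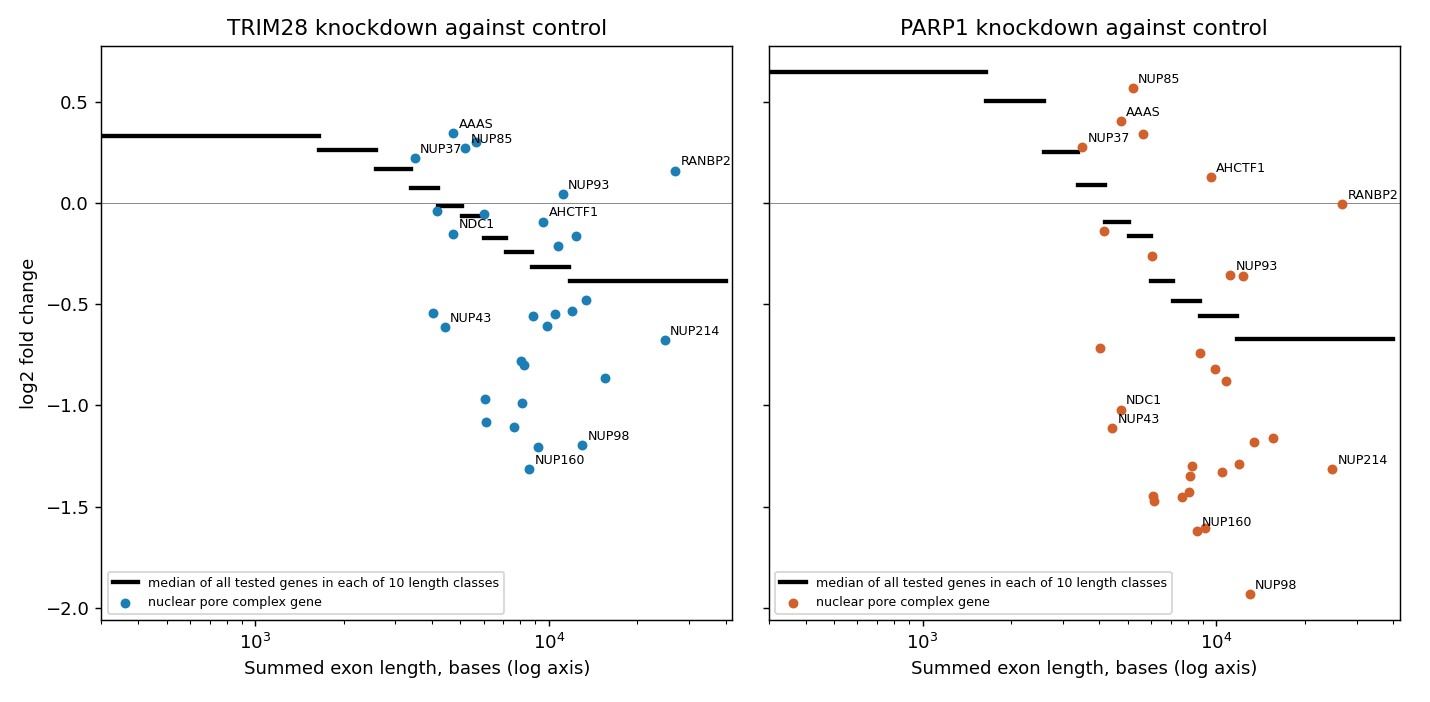
log2 fold change of each tested member against its summed exon length on a log axis, with bars for the median of all tested genes in each of 10 length classes (the outer bars run past the axis). The bars step down from 0.33 to -0.39 for TRIM28 and from 0.65 to -0.67 for PARP1 knockdown, and 20 and 21 members lie below the bar of their class.

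Since many members moved together, the sequence just upstream of their starts was read from RefSeq (GRCh38.p14) for the 29 of 32 members that could be matched, 27 of them tested. The window was the 250 bases before each start, on both strands, and the motifs were the ETS family core CCGGAAG, the NRF1 palindrome, CCAAT, the GC box GGGCGG, the YY1 site AAGATGGCG, TATAAA and the E2F forms TTTCCCGC and TTTGGCGC. The ETS core was present in 11 of 27 (40.7%), against 16.7% of 10117 tested promoters: 10 of the 19 members that fell after PARP1 knockdown and 1 of the 8 that did not. Those 10 count the copies POM121 and POM121C separately. They also include NUP35, SEH1L and NUP88, whose starts lay 6930, 878 and 502 bases from the deposited ones. Among the 8, the starts of AAAS, TPR, RAE1, NUP62 and NUP42 lay 3254, 440, 319, 260 and 207 bases away. The NRF1 palindrome was in 3 (11.1% against 2.04%), in NUP107, NUP50 and NUP62. CCAAT was in 10 (37.0% against 35.5%), the GC box in 10 (37.0% against 68.0%), the YY1 site in 1 (1.14% of all), and TATAAA and the E2F forms in none (5.29%, 2.38% and 0.88% of all). By the same split the GC box was in 9 of the 19 and 1 of the 8, and CCAAT in 7 and 3. These splits are given for members only, with no such split of all tested promoters beside them. Whether any motif goes with the fall was not tested. No match overlapped one of another motif in these members. A match is a string of letters, not a shown binding site.

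The 120 bases before the start are shown 5′ to 3′ on the gene's strand for the members with an ETS core there whose start lay within 30 bases of the deposited one, with NUP160 (largest fall in the Y complex) and NUP85 (largest rise) beside them. Capitals mark the motifs. The windows are chr12:68686858-68686977 (plus strand) for NUP107, chr22:45163805-45163924 (plus strand) for NUP50, chr9:131125466-131125585 (plus strand) for NUP214, chr7:72879237-72879356 (plus strand) for POM121, chr7:75486300-75486419 (minus strand) for POM121C, chr12:102120115-102120234 (minus strand) for NUP37, chr11:47848545-47848664 (minus strand) for NUP160 and chr17:75205559-75205678 (plus strand) for NUP85.
NUP107: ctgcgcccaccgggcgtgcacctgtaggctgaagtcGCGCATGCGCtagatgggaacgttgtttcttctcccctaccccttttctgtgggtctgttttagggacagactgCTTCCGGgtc
NUP50: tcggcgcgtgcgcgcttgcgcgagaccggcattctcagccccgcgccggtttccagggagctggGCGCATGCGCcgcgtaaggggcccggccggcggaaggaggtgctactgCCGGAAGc
NUP214: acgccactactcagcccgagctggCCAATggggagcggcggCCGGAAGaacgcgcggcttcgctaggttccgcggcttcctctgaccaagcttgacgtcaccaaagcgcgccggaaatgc
POM121: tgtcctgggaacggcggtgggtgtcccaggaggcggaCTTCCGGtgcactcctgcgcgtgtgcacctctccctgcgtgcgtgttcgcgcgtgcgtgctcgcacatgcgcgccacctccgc
POM121C: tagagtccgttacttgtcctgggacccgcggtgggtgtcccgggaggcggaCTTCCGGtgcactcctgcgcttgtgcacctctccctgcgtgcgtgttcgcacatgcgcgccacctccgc
NUP37: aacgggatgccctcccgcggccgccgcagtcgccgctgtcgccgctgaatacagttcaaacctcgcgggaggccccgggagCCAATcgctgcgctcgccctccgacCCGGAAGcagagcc
NUP160: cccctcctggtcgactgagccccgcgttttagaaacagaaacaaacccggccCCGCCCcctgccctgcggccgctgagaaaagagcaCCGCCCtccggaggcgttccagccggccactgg
NUP85: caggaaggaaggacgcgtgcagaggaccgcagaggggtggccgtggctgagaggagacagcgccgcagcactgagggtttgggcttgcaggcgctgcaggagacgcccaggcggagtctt
NUP107 and NUP50 hold both an NRF1 palindrome and an ETS core, the latter (in NUP107 as its reverse complement) 10 and 8 bases before the start. NUP214 and NUP37 pair CCAAT with an ETS core, yet NUP214 fell in both knockdowns and NUP37 in neither. POM121 and POM121C both hold an ETS core, and share a run of 51 identical bases that lies upstream of the bases printed, within the 250 searched. NUP160 has 2 GC boxes and no ETS core, and NUP85 has none of the motifs searched.

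The pore works with soluble transport receptors and the GTPase Ran, and 32 such genes were counted the same way. After TRIM28 knockdown 15 fell, 2 rose and 15 did not pass (17.5% and 10.3% of all genes fell and rose), with a median of -0.71. After PARP1 knockdown 21 fell, 5 rose and 6 did not pass (32.2% and 27.1%), with a median of -1.02. With the length trend removed 13 fell and 3 rose for TRIM28 knockdown (median -0.47), against 14.7% and 8.04% of all genes. For PARP1 knockdown that gave 17 lower and 5 higher (median -0.72), against 29.2% and 23.8%. With GC taken out as well 13 fell and 2 rose for TRIM28 knockdown (median -0.36), against 14.3% and 7.30%. For PARP1 knockdown 20 then fell and 4 rose (median -0.63), against 28.8% and 18.5%. KPNB1, the importin beta that carries most nuclear imports, changed by -1.33 ± 0.16 (SE; adjusted p = 2.23e-06) and -1.98 ± 0.17 (SE; adjusted p = 8.33e-10). TNPO3, which imports splicing factors, changed by -1.42 and -2.09, and IPO5 by -1.45 and -1.80. In the Ran system, RAN rose by 0.38 and 0.56 and RANBP1 by 0.43 and 0.61. The TRIM28 call of RANBP1 was lost with length and GC trends removed (0.25, adjusted p = 0.108). RANGAP1, which sits on RANBP2 at the pore, rose by 0.63 after PARP1 knockdown (0.23 for TRIM28, adjusted p = 0.184).

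Of 18 tested genes of the lamina and inner nuclear membrane, 8 fell, 3 rose and 7 did not pass after TRIM28 knockdown (17.5% and 10.3% of all genes fell and rose), and 9 fell, 5 rose and 4 did not pass after PARP1 knockdown (32.2% and 27.1%). Removing the length trend left 7 lower and 2 higher (14.7% and 8.04% of all genes), and 8 lower and 5 higher (29.2% and 23.8%). With length and GC trends removed 7 fell and 1 rose (14.3% and 7.30%), and 8 fell and 3 rose (28.8% and 18.5%). TMPO, which encodes the LAP2 proteins, changed by -0.96 and -1.41, and LBR, the lamin B receptor, changed by -0.89 and -1.94. EMD (emerin) rose by 0.38 and 0.83 and BANF1, which links DNA to such proteins, by 0.49 and 0.73. EMD with the length trend removed gave 0.09 (adjusted p = 0.599) and 0.30 (adjusted p = 0.0304), so that only its PARP1 call was left, and BANF1 gave 0.16 and 0.11 (adjusted p = 0.282 and 0.386). With GC taken out as well neither gene passed, and the PARP1 values were -0.15 for EMD and -0.09 for BANF1. Among 7 genes of proteins found at the pore but outside the naming rule, 3 fell and 1 rose after TRIM28 knockdown (17.5% and 10.3% of all genes), and 2 fell and 4 rose after PARP1 knockdown (32.2% and 27.1%). Removing the length trend made it 1 lower and 3 higher (14.7% and 8.04%), and 3 lower and 4 higher (29.2% and 23.8%). With length and GC trends removed it was 1 lower and 2 higher (14.3% and 7.30%), and 3 lower and 4 higher (28.8% and 18.5%). SEC13, a Y complex subunit shared with COPII coats, gave 0.31 ± 0.12 (SE; adjusted p = 0.0572) and 0.41 ± 0.12 (SE; adjusted p = 0.006). The SUMO proteases SENP1 and SENP2, which dock at the basket, changed by -0.78 and -0.71 after TRIM28 and by -1.18 and -1.51 after PARP1 knockdown. Both TRIM28 calls were lost with the length trend removed (-0.69 and -0.55, adjusted p = 0.0528 and 0.074) and with length and GC trends removed (-0.48 and -0.43, adjusted p = 0.146 and 0.144).

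Some counts may hold reads of other genes, since no source used here gives the strand setting of the counting. Of the 30 members, 8 overlap another tested gene. NUP62 overlaps IL4I1 and NUP98 overlaps CHRNA10 on the same strand, and the other 6 (NUP43, NUP153, NUP88, NUP188, POM121 and POM121C) overlap genes of the opposite strand. CHRNA10 had a mean of 9.89 counts against 1260.4 for NUP98, while PCMT1, opposite NUP43, had 2619 against 446. RANBP2 shares sequence with the RGPD genes, which had at most 13 counts in any library.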

How the data were processed

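Messenger RNA of 9 libraries of 786-O cells was analysed, in 3 groups of 3. The submitters' processing notes list GRCh38, STAR 2.7.9a, featureCounts 2.0.1, and also Trim Galore 0.6.6 and FastQC 0.11.9. No source used here gives the annotation release or the strand setting. The authors deposited a raw count and an FPKM value per gene and library. Each deposited FPKM equals the count divided by exon length and library total, to within 0.005.

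Counts were tested with edgeR 4.0.16 (quasi-likelihood test, TMM factors, filterByExpr, all 9 libraries in 1 fit with 6 residual degrees of freedom, biological coefficient of variation 0.149) in R 4.3.3, with Benjamini-Hochberg adjustment over 13562 genes at 0.05. CPM uses TMM-scaled totals. Standard errors were taken from the fold change and its F statistic. Alternatives were DESeq2 1.42.0, library totals, no filter, a replicate block, each library left out, limma 3.58.1 on log2(FPKM + 1) or log2(FPKM + 0.1) of genes with a mean FPKM over 0.5, and lowess trends (span 0.3) on exon length and on the GC content of the longest GENCODE transcript, known for 98.7% of genes. The scripts were tested on simulated data. The members and the comparison lists were chosen with earlier results of these data known. Per-library values were meant for up to 3 members with the largest called change per place in the pore and direction. Members that went against their place were added. SEH1L is printed as well, while NUP54 and NUP58, which that rule covers, are not. List genes named are those with the smallest adjusted p.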

Additional observations from a re-analysis of the deposited data

How the results depend on the processing

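In TRIM28 knockdown against control, 17 members passed. limma on log2(FPKM + 1) with no filter on low values called 8, a minimum absolute log2 fold change of 1 left 5, and leaving out 1 library gave 11 to 21 calls. For PARP1 knockdown against control the 24 calls ranged from 21 to 26 without 1 library. For the direct comparison of the knockdowns the 10 calls ranged from 7 to 14. Unfiltered limma and the 2-fold minimum left 0 there (limma had 10 at an unadjusted p under 0.05). In edgeR 10 members passed, in DESeq2 10, and in filtered limma at log2(FPKM + 1) 8 of the 27 tested there. Pairing of the libraries by replicate number was weak or absent. Same-numbered libraries of control and TRIM28 knockdown correlated at 0.141, 0.0113 and 0.106 in their deviations, and differently numbered ones at -0.164 to 0.0608. For control and PARP1 knockdown the values were 0.0344, 0.0300 and 0.0796, against -0.0693 to 0.0422. For the 2 knockdowns they were -0.0814, 0.00862 and -0.0420, against -0.0868 to 0.118. With the replicate block, 18, 24 and 10 members passed in the 3 comparisons; AAAS, at 0.34 after TRIM28 knockdown, was the 1 call that changed.

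The sign changed for some members that had not passed as measured, and for NUP93. For TRIM28 knockdown with the length trend removed, AHCTF1 gave 0.15, TPR 0.13, NUP62 0.032 and GLE1 0.035, and with length and GC trends removed AHCTF1 gave 0.30, TPR 0.28, NUP42 0.13 and NDC1 0.072. On library totals RANBP2 gave -0.0079 and NUP93 -0.11, in unfiltered limma RANBP2 gave -0.00137 and NUP93 -0.11, and NUP93 gave -0.11 in both filtered limma fits. For PARP1 knockdown, AHCTF1 gave -0.21 on library totals and -0.069 in unfiltered limma, and NUP37 gave -0.060 on library totals, -0.058 in limma at log2(FPKM + 1) with and without a filter and -0.059 at log2(FPKM + 0.1). DESeq2 gave 0.064 for RANBP2, and edgeR with its size factors 0.055. With the length trend removed TPR gave 0.13, RANBP2 0.56 and NUP93 0.073, and with both trends removed TPR 0.35, NUP42 0.19, RANBP2 0.60 and NUP93 0.22. Without 1 library the TRIM28 values ran from -0.29 to 0.15 for AHCTF1, -0.38 to 0.068 for TPR, -0.11 to 0.000911 for NUP62, -0.084 to 0.068 for NUP42 and -0.068 to 0.36 for RANBP2, and the PARP1 values from -0.14 to 0.39 for AHCTF1 and -0.42 to 0.23 for RANBP2. The cause was not tested. Over the 30 tested members in both comparisons with control and the 10 called members in the direct one, 990 values kept direction and side of the threshold, 112 lost a call, 35 gained one and 41 changed sign. At 3 libraries a group and under 10 CPM, AHCTF1, RANBP2 and TPR had the widest errors (standard errors of 0.28, 0.28 and 0.27 for PARP1 knockdown). Changes of that size, and larger ones too, could be missed for them. With the length trend removed, PARP1 values of 0.56 for RANBP2 and 0.54 for AHCTF1 did not pass (edgeR adjusted p = 0.0727 and 0.107).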
